A study of Mus musculus with 6 samples.

Results

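The Schlafen family of the mouse was followed across 6 Affymetrix gene-level arrays of cultured embryonic fibroblasts. The members were the 8 genes Slfn1, Slfn2, Slfn3, Slfn4, Slfn5, Slfn8, Slfn9 and Slfn10-ps, found by gene symbol in the platform's probe-to-gene annotation. They were read by 8 of the 26851 probesets, 1 per gene, and 0 of the 8 probesets carried the symbol of a further gene. Of the arrays, 3 came from cells with a hairpin labelled shARF and 3 from cells with the control hairpin labelled shSCR. Both groups carry what the series title calls dp53R and the sample titles Ras, and no label says more about either term. A short hairpin RNA lowers the messenger RNA that it matches, and ARF is a tumour suppressor encoded by Cdkn2a. The labels name 1 construct per group and call the replicates biological without giving their origin, so the p-values cover only the spread among these 6 arrays, part of which may be technical.

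Schlafen genes, named after the German word for sleeping, were first described as genes that slow the growth of developing T cells in mice. Many of them are induced by type I interferon, and several of the proteins bind or cut transfer RNA through a shared core domain. The mouse proteins fall into short forms (Slfn1 and Slfn2), intermediate forms (Slfn3 and Slfn4) and long forms with an added helicase-like part (Slfn5, Slfn8 and Slfn9), while Slfn10-ps is annotated as a pseudogene.

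Cdkn2a was lower in shARF, and the fibroblast markers were present. The Cdkn2a locus also encodes p16INK4a, and its probeset is named by the locus, so it may not read ARF alone. It gave a signal of 285 ± 30.7 in shARF and 530 ± 12.2 in shSCR (SD, n = 3 each) and fell by 0.90 on the log2 scale (limma, adjusted p = 0.00459). All 11 fibroblast markers were above the detection level on all 6 arrays, and 1 of them, Postn, rose (log2 difference 0.48; limma, adjusted p = 0.0271), a call lost with any 1 of the 6 arrays left out (limma, adjusted p 0.0579 to 0.0746). For 6 of the 11 markers all shARF arrays lay above the shSCR arrays, and for 2 all below, beside 13.5% and 14.4% of all tested probesets. Among those that did not pass, Dcn differed by 0.71 with its shARF arrays above (limma, adjusted p = 0.0625). Thy1 and Pdgfra differed by -0.38 and -0.22 with their shARF arrays below. The detection level is the 25th percentile of each array, at a signal of 14.1 to 14.9, and a probeset was tested if at least 3 of the 6 arrays lay above it. Among the 20310 probesets tested, 331 were higher in shARF at a limma adjusted p under 0.05, which is 1.63%, and 406 were lower, which is 2.00%, or 3.63% in either direction. Replicates of a group correlated at 0.995 to 0.997 across probesets, which are not independent, and 0 pairs of arrays held identical values.

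Of the 8 Schlafen genes 5 were tested, and in shARF cells 2 of these rose and 0 fell. Of all tested probesets 1.63% rose and 2.00% fell. Slfn2 rose 2.87-fold. Slfn8 also rose, but only 1 of its 3 shSCR arrays was above the detection level, so the size of its difference is uncertain. Slfn9, Slfn10-ps and Slfn3 had positive differences that did not pass, and Slfn1, Slfn4 and Slfn5 were too dim to test. Of the 5 tested genes, 3 had shARF arrays that all lay above the shSCR arrays, where 13.5% of all tested probesets did so, and 0 had shARF arrays that all lay below, where 14.4% of all did. The median log2 difference of the 5 was 0.47, beside 0.00093 over all tested probesets. Slfn8 would have passed the filter on its shARF arrays alone, so the 5 are not a sample of the family and their count and median are given as a description.

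**Figure D1:**
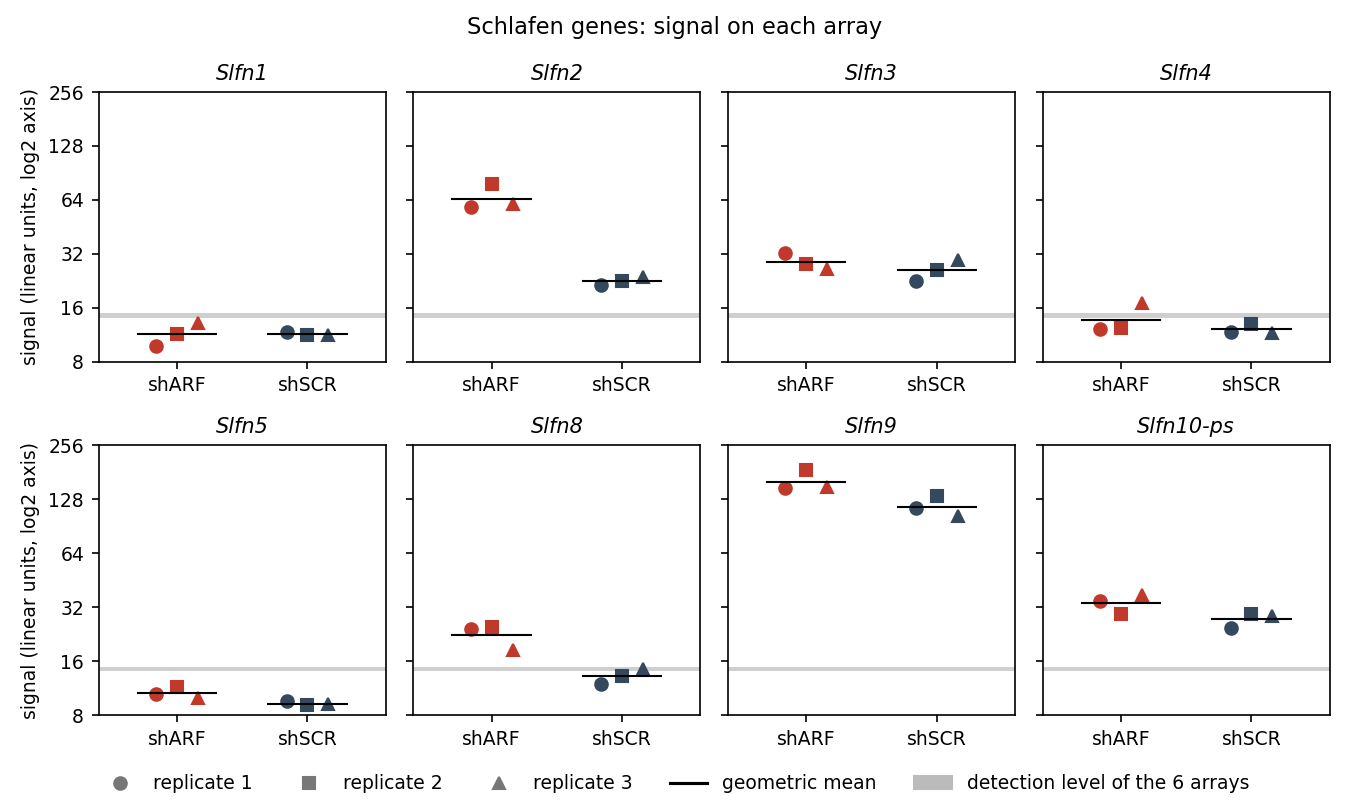
Normalized signal (linear units on a log2 axis) of the 8 Schlafen genes on each array, shARF left of shSCR; symbols mark the replicate number, black lines the geometric means and the grey band the detection levels of 14.1 to 14.9. Slfn2 separates the groups by the widest margin, and Slfn1 and Slfn5 lie under the band on all 6 arrays.

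Slfn2, a short member needed in mice for T cells and monocytes to stay quiescent and survive, had the largest difference among the members. Its signal was 58.2, 78.7 and 60.4 in shARF replicates 1, 2 and 3, against 21.6, 22.7 and 23.9 in shSCR replicates 1, 2 and 3. The lowest shARF array stood well above the highest shSCR array, and shARF replicate 2 was the highest of all. The log2 difference was 1.52 ± 0.12 (SE), with a 95% interval of 1.24 to 1.80 (limma, adjusted p = 0.00238). The call held with each of the 6 arrays left out, with limma adjusted p between 0.00519 and 0.0197, and without both replicate 2 arrays, where the difference was 1.38. In a bulk sample, more cells that use a gene and more RNA per cell cannot be told apart.

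Because Slfn genes are known from leukocytes, leukocyte markers were read on the same arrays. Of 11 myeloid markers 6 were under the detection level on all 6 arrays, among them Ptprc, the common leukocyte antigen gene, at 11.5 ± 0.87 in shARF and 10.4 ± 0.52 in shSCR (SD, n = 3 each). The macrophage genes Adgre1 and Csf1r were also under it on all 6 arrays. Of the 11 markers 4 were above it on all 6 arrays, namely Cd14, Cd53, Cd68 and Tyrobp. Cd14 and Tyrobp had log2 differences of 0.12 and 0.18 that did not pass (limma, adjusted p = 0.593 and 0.166). For Tyrobp all shARF arrays lay above the shSCR arrays. The summed myeloid signal was 258 to 296 in shARF and 248 to 271 in shSCR. Among 5 tested myeloid markers 1 rose, the leukocyte membrane gene Cd53, by 0.66 ± 0.13 on the log2 scale (limma, adjusted p = 0.0442). That call was lost with any 1 of the 6 arrays left out. The macrophage gene Cd68 had all shARF arrays below the shSCR arrays, at 46.7 ± 5.87 in shARF and 59.6 ± 3.00 in shSCR (SD, n = 3 each), and did not pass (log2 difference -0.36; limma, adjusted p = 0.109). The 7 lymphocyte markers on the array summed to 101 to 111 in shARF and 99.2 to 103 in shSCR, and 0 of the 3 tested passed. Of 5 epithelial markers 4 were tested and 1 rose, the keratin gene Krt18 (log2 difference 0.93; limma, adjusted p = 0.0370). That call held in 1 of 6 fits with an array left out (highest limma adjusted p = 0.114). The keratin gene Krt8 had all shARF arrays above the shSCR arrays, at 96.5 ± 20.6 in shARF and 57.1 ± 7.87 in shSCR (SD, n = 3 each). Krt8 did not pass (log2 difference 0.74; limma, adjusted p = 0.0583). The keratin gene Krt19 differed by -0.20 without passing, with all shARF arrays below the shSCR arrays. Of 4 endothelial markers 3 were tested and 0 passed in limma. Their log2 differences were 0.32 for Cdh5, whose shARF arrays all lay above the shSCR arrays, -0.03 for Pecam1 and -0.07 for Kdr. The part of these cell types in the Schlafen results was not tested.

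The other genes of the short and intermediate forms gave no call. Slfn1, whose overexpression slows T cell growth in mice, was under the detection level on all 6 arrays, at 9.87, 11.4 and 13.2 in shARF and 11.7, 11.3 and 11.4 in shSCR. Slfn4, known from mouse macrophages and other myeloid cells, gave 12.2, 12.4 and 17.0 in shARF and 11.8, 13.0 and 11.6 in shSCR, and only shARF replicate 3 lay above the detection level. For neither gene is a fold given. Slfn3, studied for its part in gut epithelial differentiation in the rat, gave 32.4, 28.2 and 26.4 in shARF and 22.7, 25.9 and 29.5 in shSCR. Its groups overlapped, and its log2 difference of 0.16 had a 95% interval of -0.11 to 0.43 (limma, adjusted p = 0.476).

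The stretches of DNA before the 4 genes of the short and intermediate forms are shown because Slfn2 rose while the other 3 did not pass or were too dim to test. RefSeq promoter windows (GRCm38.p6), of which the 250 bases before the annotated start were read here, were given for 7 of the 8 members, Slfn10-ps being the exception. The windows of Slfn1, Slfn2, Slfn3 and Slfn4 had 1 longest run in common, ACTTCCTGG, in capitals below. It starts 55 bases before the start of Slfn2, 74 before that of Slfn1, 42 before that of Slfn3 and 73 before that of Slfn4. On either strand, 0.700% of 32851 windows of the same length hold it, and the run was chosen after these windows were read. The full window is given for Slfn2 (chr11:83064862-83065111) and shorter stretches for Slfn1 (chr11:83116716-83116784), Slfn3 (chr11:83191258-83191326) and Slfn4 (chr11:83175083-83175151), all on the plus strand, 5′ to 3′.
Slfn2: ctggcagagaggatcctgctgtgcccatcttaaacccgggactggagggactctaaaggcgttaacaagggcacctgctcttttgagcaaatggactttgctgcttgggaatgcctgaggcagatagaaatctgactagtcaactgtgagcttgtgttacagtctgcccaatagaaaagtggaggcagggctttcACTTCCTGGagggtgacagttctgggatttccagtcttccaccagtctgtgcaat
Slfn1: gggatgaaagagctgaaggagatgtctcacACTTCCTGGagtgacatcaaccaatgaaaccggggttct
Slfn3: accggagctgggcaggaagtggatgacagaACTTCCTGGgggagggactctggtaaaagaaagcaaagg
Slfn4: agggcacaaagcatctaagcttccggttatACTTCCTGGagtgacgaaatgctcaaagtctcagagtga
In the Slfn2 window the run overlaps the only match among members to a composite motif of ETS and IRF factors (GGAA, any 2 bases, GAAA), which reads TTTCACTTCC on the printed strand and stands in 2.30% of all windows. That motif was also added after the windows were read. None of the 4 windows holds the core of the interferon-stimulated response element (GAAA, any 2 bases, GAAA) or TTCNNNGAA, the gamma-activated site, on either strand. These are matches of letters and say nothing of whether a factor binds.

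Among the long forms, Slfn8 rose and Slfn9 did not pass, while the shARF arrays of both lay above their shSCR arrays. Slfn8 gave 24.1, 24.9 and 18.6 in shARF and 12.0, 13.2 and 14.5 in shSCR. In shSCR only replicate 3 was above the detection level, so the shSCR mean of 13.2 ± 1.23 (SD, n = 3) lies around the detection level, and in shARF all 3 arrays were above it. The log2 difference was 0.76 ± 0.13 (SE; limma, adjusted p = 0.0246). The call was lost with 5 of the 6 arrays left out in turn (highest limma adjusted p = 0.0886) and held without shARF replicate 3 (limma, adjusted p = 0.0180). It was also lost without both replicate 2 arrays (limma, adjusted p = 0.158), and with 16 added to each signal before log2 the difference was 0.40. In that setting Slfn9 differed by 0.42, so no order between Slfn8 and Slfn9 is given.

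Slfn9 had signals of 147, 187 and 150.5 in shARF, against 114, 133 and 103 in shSCR. In both groups replicate 2 was the highest. The shARF arrays were all higher, and the log2 difference was 0.47 ± 0.13 (SE), with a 95% interval of 0.17 to 0.76 and an unadjusted p of 0.00698 (limma, adjusted p = 0.0985). SAM, the test the submitters name, called Slfn9 (q = 0.0378) along with Slfn2 and Slfn8, where it called 2.65% of all tested probesets higher.

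Slfn10-ps, which lies beside Slfn8 and has no settled function, gave 34.6, 29.3 and 37.5 in shARF and 24.6, 29.5 and 28.6 in shSCR. The groups overlapped through shARF replicate 2, and the log2 difference of 0.29 had a 95% interval of 0.03 to 0.55 (limma, adjusted p = 0.204). Slfn5, a long form, lay under the detection level on all 6 arrays, at 10.5, 11.4 and 9.97 in shARF and 9.57, 9.07 and 9.24 in shSCR. The shARF arrays lay above the shSCR arrays, but at this level no fold is given. Probes of Slfn8, Slfn9 and Slfn10-ps, and those of Slfn1 to Slfn4, may pick up transcripts of close paralogues, which leaves the values of single genes uncertain.

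The windows before Slfn8 and Slfn9 are shown because the shARF arrays of both genes lay above their shSCR arrays and the windows resemble each other. Over 250 bases 84.0% of the positions were identical in a global alignment, against 54.8% to 62.4% for the other 20 pairs of member windows. Both are on the minus strand, at chr11:82991831-82992080 for Slfn9 and chr11:83020811-83021060 for Slfn8 (GRCm38.p6, RefSeq), and capitals mark the match to the response element core, which lies on the opposite strand.
Slfn9: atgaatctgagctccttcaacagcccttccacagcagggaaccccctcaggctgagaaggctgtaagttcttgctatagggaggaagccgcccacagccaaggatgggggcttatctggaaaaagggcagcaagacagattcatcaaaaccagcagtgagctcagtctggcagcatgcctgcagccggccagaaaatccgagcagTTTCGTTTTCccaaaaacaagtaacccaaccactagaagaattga
Slfn8: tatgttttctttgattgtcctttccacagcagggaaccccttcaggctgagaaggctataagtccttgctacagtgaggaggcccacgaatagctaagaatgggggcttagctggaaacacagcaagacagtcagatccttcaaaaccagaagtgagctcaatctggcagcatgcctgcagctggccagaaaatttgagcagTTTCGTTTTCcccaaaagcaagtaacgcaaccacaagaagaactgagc
The same 10 letters, TTTCGTTTTC, begin 45 bases before the start of Slfn9 and 48 before that of Slfn8. The window of a further annotated Slfn8 start holds the same match at 136 bases. A different match, GAAAAAGAAA, begins 155 bases before the start of Slfn5, within a run of adenines (plus strand, chr11:82951917-82951986).
Slfn5: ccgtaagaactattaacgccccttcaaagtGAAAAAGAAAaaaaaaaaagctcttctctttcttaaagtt
Of all windows of this length, 2.98% hold this core on either strand. TTCNNNGAA stands in 7.02% of all windows and in 0 member windows. The 3 genes whose windows hold the core were 1 that rose, 1 that did not pass and 1 under the detection level, while Slfn2, with the largest difference, had no match within these 250 bases.

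Slfn2 had the larger difference in each of its 4 pairs with the other tested members. The test could not call any of the 10 pairs, since 3 against 3 arrays allow no p under 0.05. For each of the 10 pairs of tested genes the log2 ratio of both signals was taken within each array and compared between groups. In 5 pairs the ratio was higher on all 3 shARF arrays than on any shSCR array, and an exact permutation test over arrays (two-sided) gave p = 0.1 for each of these, the smallest that 3 against 3 arrays allow, and 0.2 after Benjamini-Hochberg adjustment over the 10 pairs. Slfn2 was on top in 4 of the 5, so these pairs share its values and are not independent. Each pair was ordered so that its difference was positive. No share over pairs of other probesets was taken, so the count of 5 is only a description. Its ratio over Slfn9 averaged -1.30 ± 0.05 in shARF and -2.35 ± 0.23 in shSCR (SD, n = 3 each), a difference of 1.05. Its ratio over Slfn10-ps differed by 1.23 and over Slfn3 by 1.36. The other such pairs were Slfn2 over Slfn8 and Slfn8 over Slfn3, and the sizes of their differences are uncertain because 2 of the 3 shSCR values of Slfn8 lie under the detection level. The ratio of Slfn8 over Slfn9 averaged -2.85 ± 0.21 in shARF and -3.14 ± 0.27 in shSCR, and its groups overlapped (exact permutation p = 0.3, 0.429 adjusted).

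**Figure D2:**
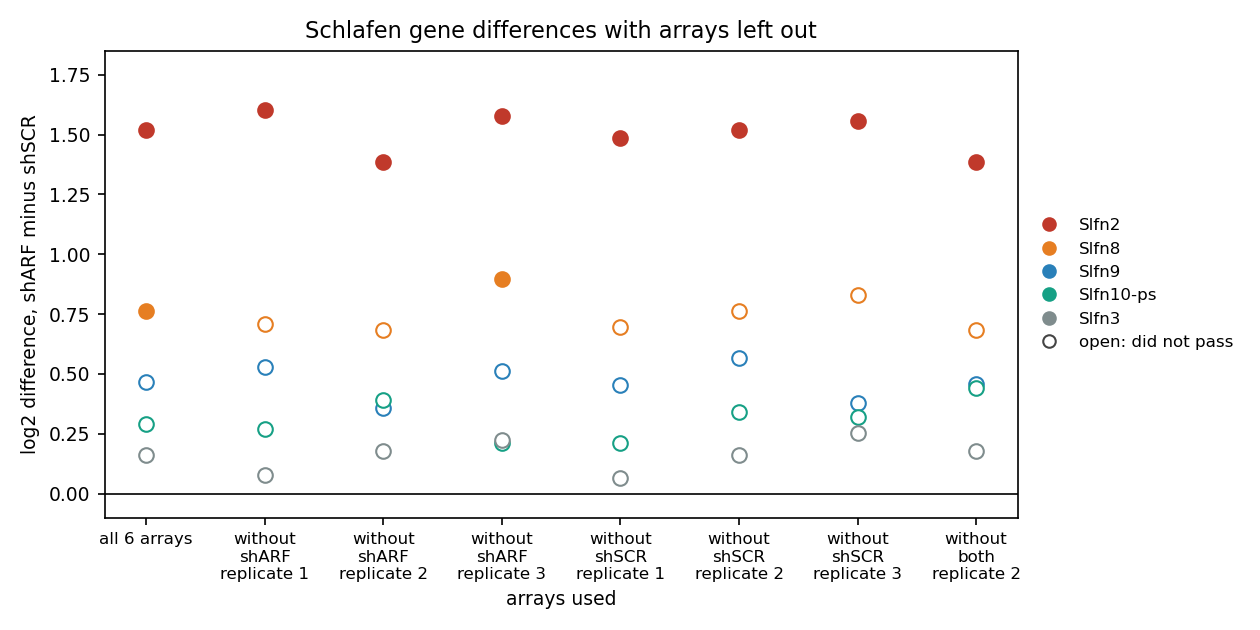
Log2 difference (shARF minus shSCR) of the 5 tested Schlafen genes with all 6 arrays, with each array left out and without both replicate 2 arrays; filled points have a limma adjusted p under 0.05. Slfn2 stays filled throughout, between 1.38 and 1.60, and Slfn8 is filled with all arrays and without shARF replicate 3.

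The 8 genes lie side by side on chromosome 11, and the genes around them gave no call. In the order of their starts in the RefSeq table the cluster runs Slfn5, Slfn9, Slfn8, Slfn10-ps, Slfn2, Slfn1, Slfn4 and Slfn3. Of the 20 protein-coding neighbours, 10 on each side, 16 were tested, and 0 passed in limma in either direction. Their log2 differences had a median of 0.03. With SAM, 1 of them was called higher, and 4 of the 16 had shARF arrays all above, and 3 all below, their shSCR arrays, beside 13.5% and 14.4% of all tested probesets. The nearest tested neighbours were Unc45b, which encodes a myosin chaperone, at 18.6 ± 0.28 in shARF and 16.4 ± 1.62 in shSCR, and Ap2b1, which encodes a clathrin adaptor subunit, at 718 ± 8.94 in shARF and 637 ± 14.9 in shSCR (SD, n = 3 each). They differed by 0.18 ± 0.082 and 0.17 ± 0.055 (log2, SE; limma, adjusted p = 0.261 and 0.142). The chemokine gene Ccl5 had the widest difference among the neighbours, 1.05 ± 0.30 (limma, adjusted p = 0.116), and the GTPase gene Rasl10b differed by -0.36 ± 0.095 (limma, adjusted p = 0.0931). Without shARF replicate 2, limma called 1 neighbour, Ccl5.

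**Figure D3:**
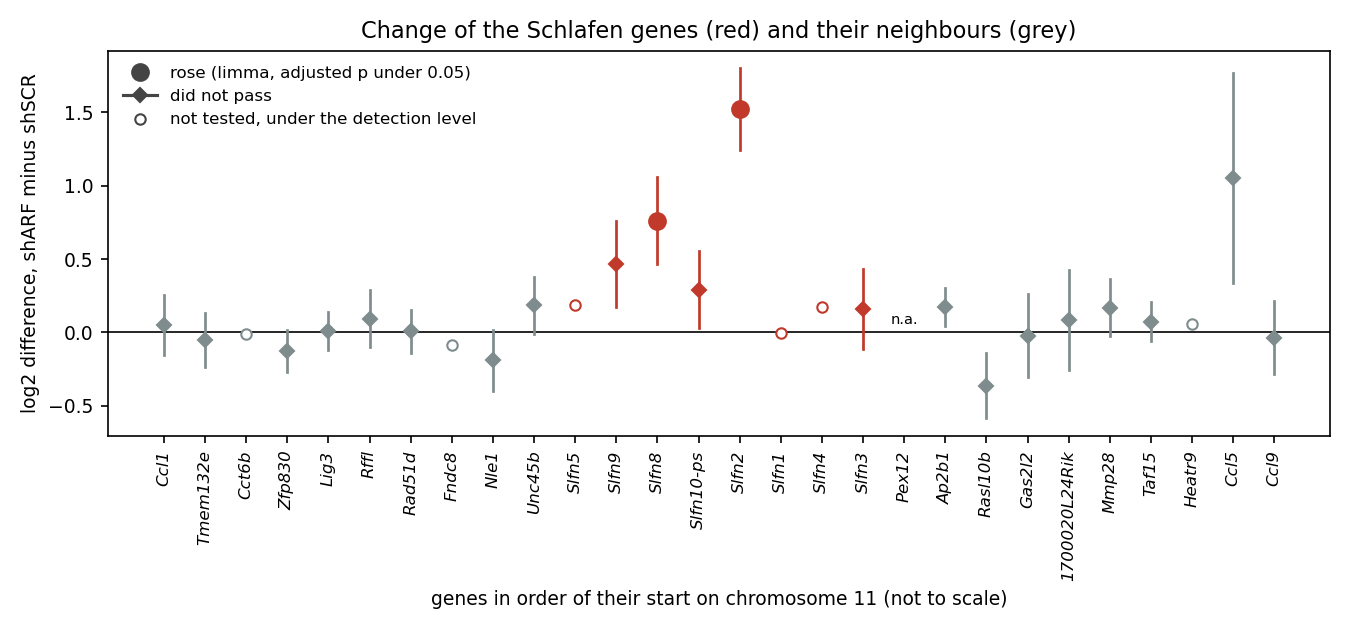
Log2 difference (shARF minus shSCR) of the Schlafen genes (red) and of 10 protein-coding genes on each side (grey), in chromosomal order and not to scale; lines are 95% intervals from limma, open circles mark genes under the detection level and n.a. a gene not analysed here. Slfn2, at 1.52, and Slfn8, at 0.76, are the only called genes of the stretch.

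Slfnl1, a Schlafen-like gene outside the cluster, gave 29.0 ± 2.44 in shARF and 29.3 ± 3.04 in shSCR (SD, n = 3 each), a log2 difference of -0.01 with a 95% interval of -0.24 to 0.22, and did not pass. The antisense transcript Slfn5os was under the detection level on all 6 arrays, at 13.2 to 13.8 in shARF and 8.80 to 13.4 in shSCR. Slfn14 was not analysed here.

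Type I interferon signals through the receptor chains IFNAR1 and IFNAR2, the kinases JAK1 and TYK2, and transcription factors such as STAT2 and IRF9 that act at the interferon-stimulated response element. Of 19 listed genes of interferon signalling 17 were measured, all of them above the detection level on all 6 arrays. The list is wider than the type I pathway and holds Ifngr1 and Ifngr2, which serve interferon gamma. In shARF 5 of the 17 rose and 1 fell, while 11 did not pass, and the median log2 difference was -0.05. Of all tested probesets 1.63% rose and 2.00% fell. The shARF arrays all lay above the shSCR arrays for 5 of the 17 genes and all below for 7, beside 13.5% and 14.4% of all tested probesets. The genes that rose were the factors Stat2 (1.19 ± 0.11, log2 difference and SE), Irf9 (0.91 ± 0.14), Irf7 (1.77 ± 0.24) and Irf1 (0.44 ± 0.070) and the receptor's negative regulator Usp18 (2.41 ± 0.34), with limma adjusted p between 0.00459 and 0.0220. Ifngr1, which encodes a subunit of the receptor for interferon gamma, fell, with a difference of -0.56 ± 0.092 (limma, adjusted p = 0.0230).

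Among the receptor and kinase genes that did not pass, the log2 differences were Ifnar1 -0.28, Ifnar2 -0.05, Ifngr2 0.04, Jak1 -0.11, Jak2 -0.23 and Tyk2 -0.14. Those of Stat3, Irf2 and Irf3 were -0.27, 0.04 and 0.02, and those of the feedback inhibitors Socs1 and Socs3 were -0.15 and -0.25. The rises were counted as 3 without shARF replicate 1 and as 1 without shSCR replicate 1 or without shSCR replicate 3. The fall of Ifngr1 was not called without shARF replicate 1 or without any 1 of the shSCR arrays. The list was chosen with earlier results of these data known, so its counts are a description beside the Schlafen genes.

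On single arrays Slfn2, Slfn8 and Slfn9 were highest on shARF replicate 2, as were Irf7, Irf9 and Usp18. Stat2 and Irf1 were highest on shARF replicate 1, and Slfn10-ps was lowest in shARF on replicate 2. Among the shARF arrays, 8 of the 17 interferon signalling genes were highest on replicate 1, 7 on replicate 2 and 2 on replicate 3. On shARF replicate 2, relative to the shSCR mean, Slfn2 was at 1.79, Slfn8 at 0.92, Slfn9 at 0.68, Irf7 at 2.20 and Usp18 at 2.90 (log2). Within shSCR, replicate 2 was highest for Slfn9 (0.20), Irf7 (0.43) and Usp18 (0.74), while Slfn2 stood at -0.07, -0.00016 and 0.07 on shSCR replicates 1, 2 and 3. The relation between these genes was not tested.

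**Figure D4:**
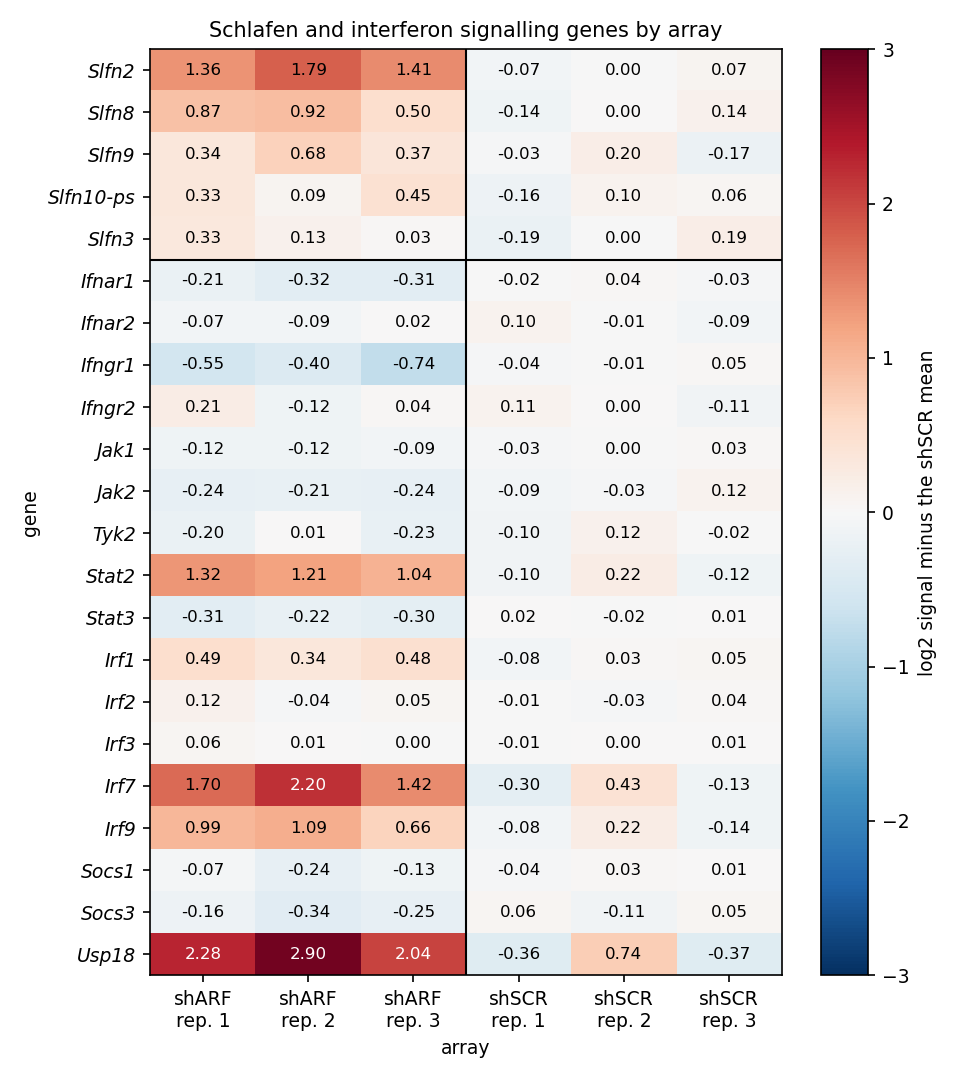
Log2 signal of each array minus the shSCR mean for the 5 tested Schlafen genes (above the line) and the 17 measured interferon signalling genes (below it), shARF arrays on the left. Slfn2 reads 1.36 to 1.79 on the shARF arrays, and Slfn3 0.03 to 0.33.

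The genes with the nearest array profiles were taken by the smallest root mean square difference from each tested Schlafen gene over the 6 arrays, among 15140 genes, after each log2 profile was centred on its own mean. For Slfn2 they were Iigp1 (0.07, log2), Psmb8 (0.14) and Dpt (0.17), with log2 differences between groups of 1.60, 1.45 and 1.20. Each profile holds the difference between groups, so similar differences follow from how the nearest genes were chosen. A relation between these genes and the Schlafen genes was not tested. For Slfn8 they were H2-Q4 (0.09), Erap1 (0.10) and Eml5 (0.10), and for Slfn9 Ctla2a (0.06), Adcyap1r1 (0.07) and Cog5 (0.08). The nearest to Slfn10-ps were Gm10277, Glp1r and Kifc2, and to Slfn3 Mblac2, Otoa and Nlrc3, at 0.03 to 0.06.

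Genes of growth and of tRNA handling, processes in which Schlafen proteins are known to act, gave 1 call. Of 12 measured genes of G1 and growth 1 rose and 0 fell, beside 1.63% and 2.00% of all tested probesets, and their median log2 difference was 0.08. For 4 of the 12 all shARF arrays lay above the shSCR arrays, and for 2 all below, beside 13.5% and 14.4% of all tested probesets. The gene that rose was Ccnd3, which encodes cyclin D3, at 701 ± 22.3 in shARF and 557 ± 25.4 in shSCR (SD, n = 3 each; limma, adjusted p = 0.0375), a call lost with any 1 of the 6 arrays left out. Of 7 symbols listed for tRNA cleavage and protection 4 were measured, and 0 of these passed in limma. The listed symbol Dnmt2 is an older name of Trdmt1, which was measured. The symbols Ang and Rnase4 were not read here, so these processes are covered only in part. The log2 differences were -0.19 for Elac2, which encodes a tRNA 3′ processing enzyme, 0.19 for the ribonuclease inhibitor gene Rnh1, -0.11 for Trdmt1 and -0.08 for Nsun2, both genes of tRNA methyltransferases.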

How the data were processed

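Each array gave 1 value per probeset from 50 ng of total RNA, labelled as biotinylated cDNA according to the labels' protocols. The deposited values are linear intensities. Per the series design text and the submitters' processing notes, the authors normalized them with RMA (background correction, quantile normalization, probe summary) in Affymetrix Expression Console, with the version and genome build not given in the sources used here. Control probesets and those absent from every array were dropped by the authors, as the design text states. RMA makes folds of dim genes smaller, and quantile normalization hides a change common to most genes. Arrays have no read depth, so precision depends on how many there are.

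Values were turned to log2. Probesets were named from the platform annotation, and of 20975 single-gene probesets matched to the RefSeq table by gene ID 0 had another symbol there. Those above the 25th percentile on at least 3 of 6 arrays entered 1 fit in limma 3.58.1 under R 4.3.3 (lmFit, eBayes, two-sided, Benjamini-Hochberg over 20310 probesets, threshold 0.05). A gene with several probesets was represented by the tested one with the highest mean. On simulated data the fit recovered 49% of 100 changes of 0.5 log2 and 89% of 100 changes of 1, with 12 false calls. The simulated noise was normal and independent between probesets, with the SD of each probeset. Fewer probesets changed there than were called in the real data, so these rates may not hold for the real arrays. Sequences came from RefSeq windows and were aligned with Biopython 1.88.

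Alternatives were other filters, normalizations and variance models, an offset of 16, SAM (recomputed here with all relabellings), the replicate number as a block, and arrays left out. Genes named outside the family were the listed interferon signalling genes, called members of the other lists or up to 4 with the smallest p, the nearest neighbours and the 3 nearest profiles per member. The single-array values, and the cell type markers named that did not pass or lay under the detection level, were picked after values were seen. The members and lists were chosen with earlier results of these data known.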

Additional observations from a re-analysis of the deposited data

How the results depend on the processing

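With the alternatives tried, 0 of the 5 tested Schlafen differences turned direction. With 1 array left out, differences near 0 of other genes crossed it, among them Ifngr2 (-0.04 to 0.12), Ifnar2 (-0.09 to 0.001) and Slfnl1 (-0.10 to 0.04). Slfn2 kept its call in each alternative (log2 difference 1.07 to 1.60), and Slfn3 and Slfn10-ps passed in none. Slfn8 was 0.76 and lost its call with the replicate number as a block (replicate block, limma, adjusted p = 0.0681), and was 0.68 and lost it without both replicate 2 arrays. With 1 array left out it ranged from 0.68 to 0.89. Slfn9, at 0.47, passed with a trended robust prior (adjusted p = 0.0284), in SAM and with the replicate block (adjusted p = 0.0447). Same-numbered arrays share only a number: their deviations from the group means correlated at 0.078, 0.052 and 0.00062, and 3 of the 6 arrays correlated best with their own number. The count of Schlafen genes that rose was 2, and 3 with the trended robust prior and in SAM, 1 with the detection level at the 50th percentile, where fewer are tested, 1 without both replicate 2 arrays, and 1 to 2 with 1 array left out. The pairs with separate ratios numbered 5 to 7.

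Over the whole table, the 331 rises were 718 with the trended robust prior, 539 in SAM, 216 with the replicate block, 114 without both replicate 2 arrays and 91 to 201 with 1 array left out. The 406 falls were 891, 669, 202, 60 and 94 to 192 in the same order, 233 with no filter, 705 with the 50th percentile and 668 with the offset of 16. Interferon signalling rises were 3 without both replicate 2 arrays and 1 to 4 with 1 array left out. Falls there were 3 with the 50th percentile, the offset, the trended robust prior and SAM, 0 with the replicate block and without both replicate 2 arrays, and 0 to 1 with 1 array left out. Neighbour rises were 1 in SAM and without both replicate 2 arrays, and 0 to 1 with 1 array left out. Growth gene rises were 3 with the trended robust prior, and 0 with no filter, with the replicate block, without both replicate 2 arrays and with any 1 array left out. The cause of these shifts was not tested. Signals of Slfn1, Slfn4, Slfn5 and, in shSCR, Slfn8 lie near the detection level, which limits what can be said of them.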
